A study of Mus musculus with 6 samples.

Results

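The genes of myoblast fusion described here are 10 mouse genes: the fusogens Mymk and Mymx, the cadherins Cdh15 and Cdh2, the immunoglobulin-family adhesion molecules Jam2, Jam3 and Kirrel1, the exchange factor Dock1, the metalloproteinase Adam12 and the membrane protein Tmem182. They were chosen by name, from 20659 genes that could be named on the array, and every probe whose RefSeq accession belonged to one of them was taken. The 10 genes had 16 probes, of which 14 passed the filter on dim probes and 13 were well above background on all 6 arrays. Each gene kept at least 1 tested probe. Mymk was formerly called Tmem8c, Mymx Gm7325 and Kirrel1 Kirrel.

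The tested cells were C2C12, a mouse myoblast line that fuses into myotubes when it differentiates, transfected with an siRNA (si-lncMGPF, 3 samples) that targets lncMGPF, a long noncoding RNA. The others were the same line with a control siRNA (si-NC, 3 samples). All 6 samples were taken after 2 days of differentiation, and their total RNA was read on 1-colour Agilent arrays, 1 array per sample. A single cell line limits both groups as a model of muscle, and the labels do not say whether the samples of a group were separate cultures, so a p-value here reflects the spread among these samples alone, which may be technical. No name used here was that of lncMGPF itself, so its level was not checked.

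Mononucleated myoblasts become multinucleated fibres by recognising each other, adhering, rearranging the actin cortex beneath the contact and finally merging their membranes. Cadherins and immunoglobulin-family proteins hold the cells together, Dock1 relays the contact to Rac and the actin cortex, and the muscle proteins myomaker (Mymk) and myomerger (Mymx) carry out the merging of the lipid layers. Expression of Mymk and Mymx is switched on by the myogenic transcription factors as myoblasts differentiate, and both are needed for fusion in mouse muscle.

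Values are log2 of the processed spot signal relative to the array's 75th percentile, so that 0 is the 75th percentile of that array and a difference of 1 is a doubling. Levels of different probes cannot be set against each other. The 75th percentile lay between 492.1 and 923 intensity units on the si-lncMGPF arrays and between 688.2 and 930.7 on the si-NC arrays. By their scan identifiers, slide 1 carried all 3 si-NC arrays together with replicate 1 of si-lncMGPF, while slide 2 carried replicates 2 and 3 of si-lncMGPF. With 0 si-NC arrays on slide 2, slide and knockdown cannot be told apart for those 2 arrays, and within slide 1 a single si-lncMGPF array stands against 3 si-NC arrays. The share of probes well above background was 64.28%, 57.3% and 56.93% on si-lncMGPF replicates 1 to 3, and 64.13% to 65.28% on the si-NC arrays, so both arrays of slide 2 had the lowest shares. All 8 myoblast and myotube markers examined (Myod1, Myog, Des, Ckm, Acta1, Mylpf, Tnnt3 and Cdh15) were well above background on all 6 arrays, with log2 changes from -0.30 to 0.13 and 0 past the threshold. Markers of other cell types were also read above background on all arrays, namely 4 of 4 for fibroblasts, 2 of 4 for endothelium, 3 of 4 with a probe for leukocytes and 1 of 3 for neural cells, against 0 of 4 for adipocytes and 0 of 2 with a probe for osteoblasts. Those that were tested had log2 changes from -0.54 to 0.66, 0 of them past the threshold, and their part in the results below was not tested.

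At 2 days of differentiation, with the siRNA against lncMGPF, none of the fusion genes passed the test. Limma, fitted over all tested probes, called 0 of the 14 member probes at a Benjamini-Hochberg adjusted p below 0.05, and 1 had an unadjusted p below 0.05. Over the whole array 0.106% of tested probes were called (26 of 24617) and 15.8% had an unadjusted p below 0.05. The median log2 change was 0.02 over the 14 member probes and 0.01 over all tested probes. Of the 14 changes 9 were positive and 5 negative, and 13 were smaller than 0.2 in size, between -0.19 and 0.17. The remaining 1, a Kirrel1 probe, had 0.90. In 3 of the 14 probes the groups did not overlap, 2 higher and 1 lower in si-lncMGPF, where 22.9% of all tested probes showed no overlap.

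**Figure D1:**
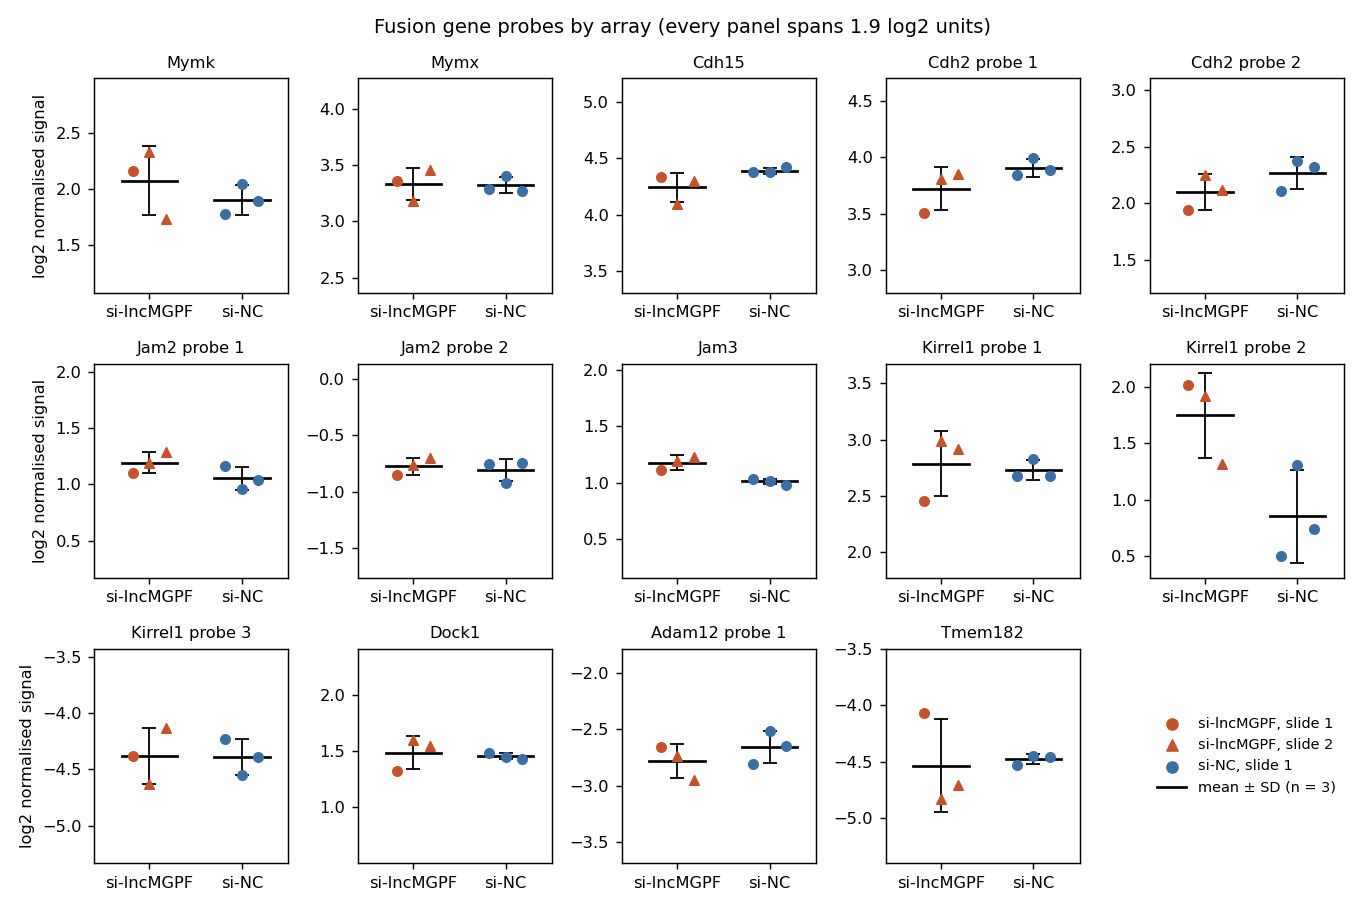
Log2 normalised signal (vertical axis, relative to the array's 75th percentile) of the 14 tested member probes in si-lncMGPF (left in each panel) and si-NC (right), 1 point per array, with the mean and SD of 3 arrays; triangles mark the si-lncMGPF arrays on slide 2. Jam3 and Kirrel1 probe 2 lie higher in si-lncMGPF without overlap, Cdh15 lower, and the other 11 probes overlap.

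Promoter sequences are shown for 3 members, Cdh15 and Tmem182 as genes known from muscle cells, and Kirrel1 because it held the member probe with the smallest p. They are the 250 bases before the RefSeq start site, given 5′ to 3′ on the gene's strand (GRCm38.p6), and capitals mark each CANNTG, the E-box bound by the myogenic transcription factors. The stretches are chr8:122848124-122848373 (plus strand) for Cdh15, chr1:40805351-40805600 (plus strand) for Tmem182 and chr3:87174538-87174787 (minus strand) for Kirrel1.
Cdh15: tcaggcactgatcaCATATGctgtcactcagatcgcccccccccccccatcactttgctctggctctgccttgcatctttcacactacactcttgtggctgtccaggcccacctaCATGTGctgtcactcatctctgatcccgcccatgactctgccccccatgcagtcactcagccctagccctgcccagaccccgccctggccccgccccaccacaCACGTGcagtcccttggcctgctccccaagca
Tmem182: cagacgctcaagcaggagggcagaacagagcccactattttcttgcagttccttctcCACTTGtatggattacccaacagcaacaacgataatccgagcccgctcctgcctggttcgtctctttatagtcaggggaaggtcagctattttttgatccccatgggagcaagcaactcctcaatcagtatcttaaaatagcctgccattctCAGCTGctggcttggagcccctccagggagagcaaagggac
Kirrel1: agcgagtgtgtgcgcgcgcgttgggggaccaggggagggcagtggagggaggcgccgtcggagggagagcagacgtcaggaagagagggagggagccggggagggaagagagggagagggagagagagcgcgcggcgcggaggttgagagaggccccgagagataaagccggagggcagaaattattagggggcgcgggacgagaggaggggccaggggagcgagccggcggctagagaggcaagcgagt
The Cdh15 stretch held 3 matches to CANNTG, that of Tmem182 held 2 and that of Kirrel1 held 0. A match reads the same motif on both strands. Of 32851 mouse promoters of the same length 66.2% held at least 1, so a match is common. The Tmem182 match that begins 41 bases before the start site is CAGCTG, a form that 13% of promoters held. Such matches describe the letters and not binding, and the levels of the 3 genes follow below. Promoters were read for 4 of the 10 members, the other being Dock1, and 1 chromosome was left out of that search.

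Mymk encodes myomaker, the membrane protein that must be present on both fusing cells. Its log2 signal was 2.16, 2.33 and 1.74 on si-lncMGPF replicates 1, 2 and 3, against 1.78, 2.05 and 1.89 on si-NC replicates 1, 2 and 3. The lowest and the highest of the 6 values both came from si-lncMGPF, so the groups overlapped. The log2 change was 0.17 (SE 0.17, 95% interval -0.23 to 0.57, limma adjusted p = 0.628), a fold of 1.12 with an interval from 0.853 to 1.48. The mean was 2.08 ± 0.30 in si-lncMGPF and 1.91 ± 0.13 in si-NC (SD, n = 3 each).

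Mymx encodes myomerger, the small membrane protein that completes the opening of the fusion pore. It read 3.36, 3.18 and 3.46 on si-lncMGPF replicates 1 to 3, against 3.29, 3.40 and 3.27 on si-NC replicates 1 to 3. The groups again overlapped, with si-lncMGPF at both ends of the range. Its log2 change was 0.01 (SE 0.10, 95% interval -0.24 to 0.26, limma adjusted p = 0.969), so that the interval of the fold ran from 0.848 to 1.2. Only 3.98% of tested probes had a smaller change in size than Mymx, against 54.6% for Mymk.

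The same 2 genes were compared with all 12900 genes above background on all arrays, by the root mean square difference between log2 values centred on each gene's mean over the 6 arrays. The genes nearest to Mymk were Gm5478 (0.0455), Ghrl (0.0474) and Pcbd1 (0.0506), where the median gene differed from it by 0.251. Nearest to Mymx were Mef2a (0.0212), Hsf4 (0.0286) and Capza1 (0.0319), where the median gene differed by 0.175. Mymk and Mymx differed from each other by 0.267, and 8084 genes were nearer to Mymk than Mymx was. The highest si-lncMGPF value of Mymk came from replicate 2, the array with the lowest value of Mymx. These likenesses rest on 6 arrays and are given as a description.

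Cdh15 encodes M-cadherin, the cadherin of myoblasts and satellite cells. Its log2 signal was 4.34, 4.10 and 4.30 on si-lncMGPF replicates 1 to 3, against 4.38, 4.38 and 4.42 on si-NC replicates 1 to 3. All si-lncMGPF values lay below all si-NC values, a pattern that 13.3% of tested probes showed in this direction. The log2 change of -0.15 (SE 0.10, 95% interval -0.38 to 0.09) did not pass the test (limma adjusted p = 0.477), and the gap between si-lncMGPF replicate 1 and the nearest si-NC array was smaller than the SD within si-lncMGPF (0.13).

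Cdh2 encodes N-cadherin, which myoblasts also carry at their contacts, and was read by 2 probes, numbered from the brighter one. Probe 1 had 3.50, 3.81 and 3.85 on si-lncMGPF replicates 1 to 3, against 3.84, 3.99 and 3.88 on si-NC replicates 1 to 3. Probe 2 had 1.94, 2.25 and 2.11 on si-lncMGPF replicates 1 to 3, against 2.11, 2.38 and 2.32 on si-NC replicates 1 to 3. On both probes si-lncMGPF replicate 1 was the lowest array, and the groups overlapped. The log2 changes were -0.19 (SE 0.12, 95% interval -0.47 to 0.10) and -0.17 (SE 0.12, 95% interval -0.46 to 0.13), with limma adjusted p of 0.466 and 0.518. Taken against the mean of the 3 si-NC arrays, all on slide 1, the 2 probes gave the same direction for either slide. The differences were -0.40 and -0.33 for the si-lncMGPF array on slide 1, and -0.08 on both probes for those on slide 2. The 2 probes read the same samples, so they are not separate observations.

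Jam2 and Jam3 encode the junctional adhesion molecules B and C, which bind each other across a cell contact and whose zebrafish counterparts are needed for fusion of fast muscle precursors. Jam3 read 1.11, 1.20 and 1.23 on si-lncMGPF replicates 1 to 3, against 1.03, 1.02 and 0.98 on si-NC replicates 1 to 3. The groups did not overlap, with si-lncMGPF higher, as for 9.58% of tested probes. Its pooled SD was 0.0482, and 3.33% of tested probes varied less. The log2 change was 0.17 (SE 0.08, 95% interval -0.03 to 0.37) and did not pass (limma adjusted p = 0.368), which bounds the fold between 0.979 and 1.29.

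The brighter of the 2 Jam2 probes read 1.096, 1.19 and 1.29 on si-lncMGPF replicates 1 to 3, against 1.16, 0.96 and 1.04 on si-NC replicates 1 to 3. The groups overlapped through si-lncMGPF replicate 1 and si-NC replicate 1. Its log2 change was 0.14 (SE 0.10, 95% interval -0.10 to 0.38, limma adjusted p = 0.505), and that of the dimmer probe 0.03 (SE 0.10, 95% interval -0.20 to 0.26, adjusted p = 0.881). The dimmer probe lay between -0.85 and -0.70 in si-lncMGPF and between -0.92 and -0.75 in si-NC.

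Kirrel1 encodes a nephrin-like adhesion protein, related to the fly proteins that let founder cells and fusion-competent myoblasts recognise each other. Its 3 probes did not give the same change. Probe 2, assigned by its accession to the same transcript as probe 1, read 2.01, 1.92 and 1.32 on si-lncMGPF replicates 1 to 3, against 0.50, 1.31 and 0.74 on si-NC replicates 1 to 3. All si-lncMGPF arrays lay above all si-NC arrays, although si-lncMGPF replicate 3 (1.318) stood next to si-NC replicate 2 (1.31). The log2 change was 0.90 (SE 0.26, 95% interval 0.27 to 1.52), a fold of 1.86, with an unadjusted p of 0.0118 that did not survive adjustment in limma (adjusted p = 0.23).

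The probe was also noisy, with a pooled SD of 0.397 that exceeded that of 91.2% of tested probes. Probe 1 read 2.46, 2.99 and 2.91 on si-lncMGPF replicates 1 to 3, against 2.68, 2.83 and 2.68 on si-NC replicates 1 to 3. Here si-lncMGPF replicate 1, the highest array of probe 2, was the lowest array. Its log2 change was 0.06 (SE 0.15, 95% interval -0.31 to 0.43, limma adjusted p = 0.87). Probe 3, assigned to another Kirrel1 transcript and dim, had 0.01 (SE 0.15, 95% interval -0.35 to 0.38, adjusted p = 0.976) with processed signals between 23.5 and 49.6 intensity units. The interval of probe 2 overlapped those of the other 2 probes, and the difference between probes was not tested.

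**Figure D2:**
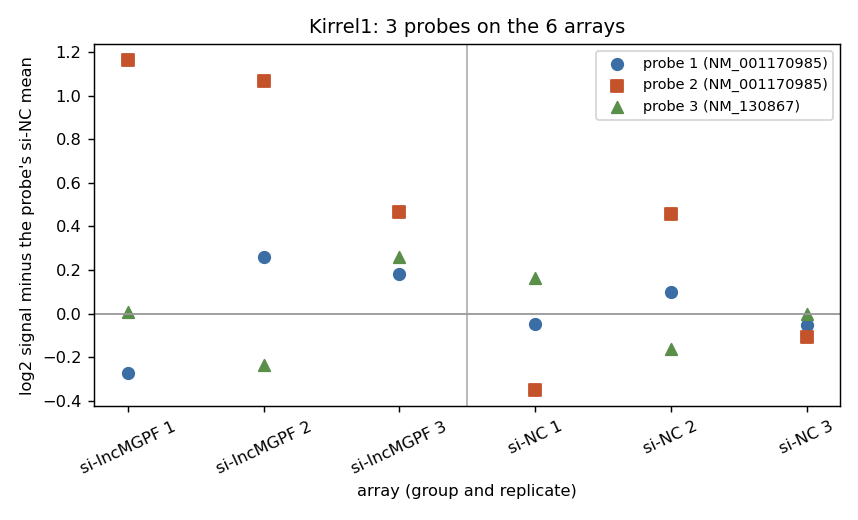
Log2 signal of the 3 Kirrel1 probes on each array, minus the probe's own si-NC mean (vertical axis), with the si-lncMGPF arrays left and the si-NC arrays right of the line. On si-lncMGPF replicate 1 probe 2 lies 1.16 above its si-NC mean and probe 1 lies 0.27 below its own.

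Dock1 encodes the exchange factor that activates Rac at the contact. It read 1.32, 1.60 and 1.54 on si-lncMGPF replicates 1 to 3, against 1.48, 1.44 and 1.43 on si-NC replicates 1 to 3. The si-NC arrays lay inside the si-lncMGPF range, with si-lncMGPF replicate 1 below them and the other two above. Its log2 change was 0.03 (SE 0.10, 95% interval -0.21 to 0.28, limma adjusted p = 0.892).

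Adam12 encodes meltrin alpha, a metalloproteinase and disintegrin of the myoblast surface. Of its 3 probes 1 was above background, with -2.66, -2.74 and -2.95 on si-lncMGPF replicates 1 to 3, against -2.81, -2.52 and -2.65 on si-NC replicates 1 to 3. The groups overlapped and the log2 change was -0.12 (SE 0.12, 95% interval -0.41 to 0.16, limma adjusted p = 0.622). The other 2 Adam12 probes were not well above background on any of the 6 arrays, with processed signals from 2.51 to 11 intensity units, and no fold is given for them.

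Tmem182 encodes a muscle membrane protein that has been described as a brake on fusion. Its log2 signal was -4.07, -4.83 and -4.71 on si-lncMGPF replicates 1 to 3, against -4.53, -4.45 and -4.46 on si-NC replicates 1 to 3. The si-NC arrays were close together, and the si-lncMGPF arrays lay on both sides of them, with replicate 1 above and replicates 2 and 3 below. The probe was well above background on 1 of 3 si-lncMGPF arrays, replicate 1, and on 3 of 3 si-NC arrays. It passed the filter on dim probes through si-NC alone, with processed signals between 18.8 and 55.1 intensity units. Its log2 change was -0.06 (SE 0.20, 95% interval -0.53 to 0.42, limma adjusted p = 0.9).

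Read slide by slide, the median difference of the 14 member probes was 0.004 within slide 1 and 0.04 on slide 2, both taken against the mean of the 3 si-NC arrays, where all tested probes had -0.04 and 0.03. For 5 of the 14 probes the 2 differences had opposite signs. Tmem182 had 0.41 within slide 1 and -0.29 on slide 2, Kirrel1 probe 1 had -0.27 and 0.22, and Dock1 had -0.13 and 0.12. The Tmem182 probe was dim and not well above background on the slide 2 arrays. Negative control spots had a mean net signal of 37.3 and 42.5 on those arrays, against 20.1 to 21.8 on slide 1. The part of this in the Tmem182 differences was not tested. Mymk was above the si-NC mean on both slides, at 0.26 and 0.13, and so was Jam3, at 0.10 and 0.20. Kirrel1 probe 2 had 1.16 within slide 1 and 0.77 on slide 2.

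**Figure D3:**
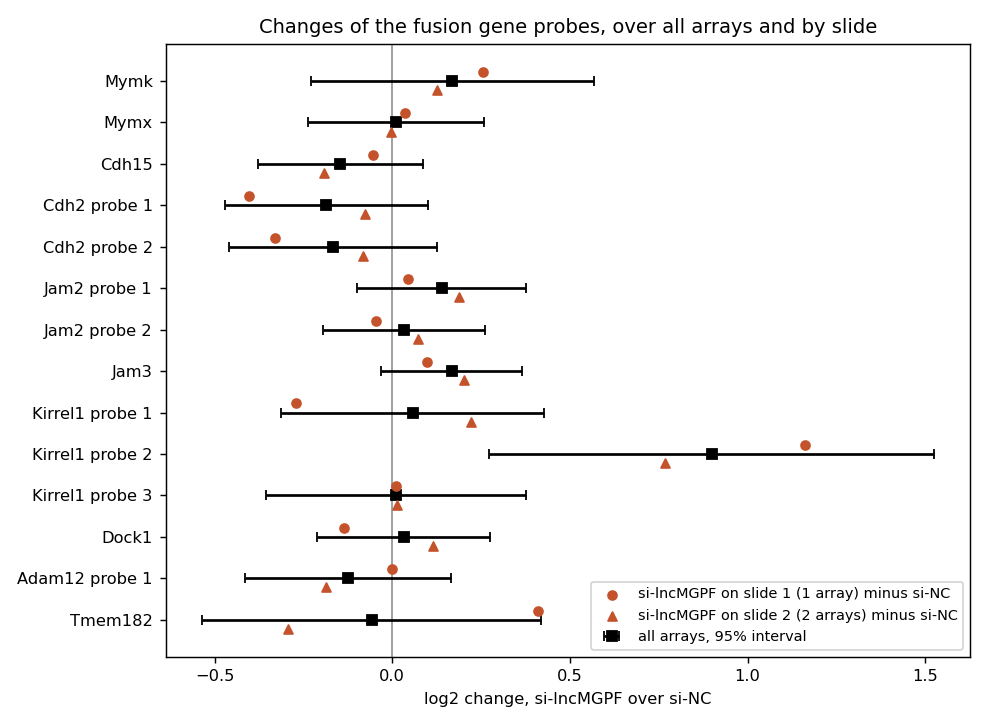
Log2 change of each tested member probe, si-lncMGPF over si-NC (horizontal axis), over all arrays with its 95% interval from limma (squares), from the si-lncMGPF array on slide 1 (circles) and from the 2 on slide 2 (triangles), all against the same 3 si-NC arrays. For 13 of 14 probes the interval holds 0, and Tmem182, Kirrel1 probe 1 and Dock1 have circles and triangles on opposite sides of 0. The Tmem182 probe was not well above background on the slide 2 arrays.

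Other genes of the fusion pathway were read from a wider list. The list of 108 genes had 95 tested members with 1 probe per gene, and limma called 0 of them, where 0.147% of all 14244 genes tested were called. At an unadjusted p below 0.05 there were 13 of the 95 (13.7%), 3 higher and 10 lower, beside 14.1% of all genes (6% higher and 8.14% lower). The groups did not overlap for 23 of the 95 (24.2%), 8 higher and 15 lower, beside 22.3% of all genes (9.63% higher and 12.7% lower). Both lower counts, and those of the actin regulators below, hold Arhgap10 (log2 change -0.67). Arhgap10 was well above background on 2 of 3 si-lncMGPF and 3 of 3 si-NC arrays, so it passed the filter on dim probes through si-NC alone. The median log2 change was 0.03 for the list and 0.02 for all genes. From the single si-lncMGPF array on slide 1 the median was -0.14 for the list, beside -0.07 for all genes. From the pair on slide 2 it was 0.09, beside 0.06 for all genes. Within slide 1 the knockdown cannot be told apart from that 1 array, nor on slide 2 from the slide. By category the median over all arrays was 0.008 for 19 adhesion molecules and 0.06 for 28 actin regulators. It was -0.06 for 23 phosphatidylserine, tetraspanin and membrane proteins, and 0.01 for 25 secreted factors, receptors and regulators. An unadjusted p below 0.05 was found for 1 adhesion molecule (5.26%), 3 actin regulators (10.7%), 3 membrane proteins (13%) and 6 of the secreted factors, receptors and regulators (24%, 2 higher and 4 lower). The groups did not overlap for 2 of 19, 5 of 28, 5 of 23 and 11 of 25 genes in the same order of categories, the last a share of 44%. The differences between categories were not tested.

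The members named below had the smallest p of their category among genes above background on all arrays without overlap of the groups, and in these 8 si-lncMGPF was the lower group. The list also held genes that lay the other way, described after them. Fst encodes follistatin, an antagonist of myostatin and activin that promotes fusion. It read 0.38, 0.30 and 0.31 on si-lncMGPF replicates 1 to 3, against 0.94, 1.11 and 1.04 on si-NC replicates 1 to 3. The groups were separated by more than the spread within either, and the log2 change was -0.70 (SE 0.09, 95% interval -0.91 to -0.49, limma adjusted p = 0.0819). Within slide 1 it was -0.65, and on slide 2 -0.72. Without si-lncMGPF replicate 1, which leaves each group on its own slide, the limma adjusted p of Fst was 0.00637. In that setting limma called 4131 of the 24617 tested probes. Without each of the other 5 arrays the adjusted p of Fst lay between 0.142 and 0.599. Tgfbr1, a receptor of TGF-beta, had a log2 change of -0.35 (limma adjusted p = 0.218), and a second, dim Tgfbr1 probe was not tested.

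Cav3 encodes caveolin 3 of the muscle membrane. It read 0.02, 0.16 and 0.14 on si-lncMGPF replicates 1 to 3, against 0.64, 0.80 and 0.67 on si-NC replicates 1 to 3. Dysf, which encodes the membrane repair protein dysferlin, read 0.85, 0.92 and 0.93 on si-lncMGPF replicates 1 to 3, against 1.21, 1.36 and 1.30 on si-NC replicates 1 to 3. In both genes the si-lncMGPF arrays of the 2 slides lay together and apart from si-NC, yet neither passed the test. The log2 change was -0.60 for Cav3 (SE 0.09, limma adjusted p = 0.125) and -0.39 for Dysf (SE 0.09, limma adjusted p = 0.192). Without si-lncMGPF replicate 1, where 4131 of 24617 probes were called, the limma adjusted p was 0.0137 for Cav3 and 0.034 for Dysf. Without each of the other 5 arrays it lay between 0.142 and 0.646 for Cav3 and between 0.145 and 0.646 for Dysf.

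Among adhesion molecules Jup, the junctional catenin plakoglobin, had -3.31, -3.31 and -3.28 on si-lncMGPF replicates 1 to 3, against -2.89, -2.38 and -2.63 on si-NC replicates 1 to 3. The si-lncMGPF arrays were nearly equal and the spread lay in si-NC. The log2 change was -0.67 (SE 0.14, limma adjusted p = 0.184), and -0.19 after normexp background correction. That setting added an offset of 50 intensity units, which by itself draws the log2 change of a dim probe such as that of Jup toward 0. The part of the offset in the difference was not tested. Without si-lncMGPF replicate 1, where 4131 of 24617 probes were called, its limma adjusted p was 0.0467. Without each of the other 5 arrays it lay between 0.147 and 0.646. Cdh11, a cadherin of mesenchymal cells, had -0.23 (limma adjusted p = 0.361), which was -0.09 within slide 1 and -0.31 on slide 2, and a second probe below background. Of the actin regulators, Iqsec2, an exchange factor for Arf6, had -0.31 (limma adjusted p = 0.252) and the adaptor Bcar1 had -0.28 (limma adjusted p = 0.295). The 3 genes with si-lncMGPF higher at an unadjusted p below 0.05, chosen after their values were seen, were Mef2c, Anxa5 and Ntn1. Mef2c, a muscle transcription factor, read -4.91, -4.06 and -4.25 on si-lncMGPF replicates 1 to 3, against -5.21, -5.16 and -5.18 on si-NC replicates 1 to 3. Its groups did not overlap, and its log2 change of 0.78 (SE 0.21, limma adjusted p = 0.224) was the highest on the list. The change was 0.27 from slide 1 and 1.03 from slide 2. The Mef2c signal was dim. Negative control spots had a mean net signal of 37.3 and 42.5 on si-lncMGPF replicates 2 and 3. On the slide 1 arrays it was 20.1 to 21.8, and the part of this difference in the Mef2c change was not tested. Anxa5, a phosphatidylserine-binding annexin, had 0.39 and the guidance factor Ntn1 had 0.25 (limma adjusted p of 0.23 and 0.258), both without overlap. Without si-lncMGPF replicate 1 the limma adjusted p was 0.00299 for Mef2c, 0.0266 for Anxa5 and 0.0365 for Ntn1. In that setting limma called 9 of the 95 list genes, beside 4131 of 24617 probes over the array. Without each of the other 5 arrays limma called 0 genes of the list (8 to 22 at an unadjusted p below 0.05). Of the myogenic factors on the list, Myod1 had 0.06 and Myog 0.09 (limma adjusted p of 0.808 and 0.661).

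**Figure D4:**
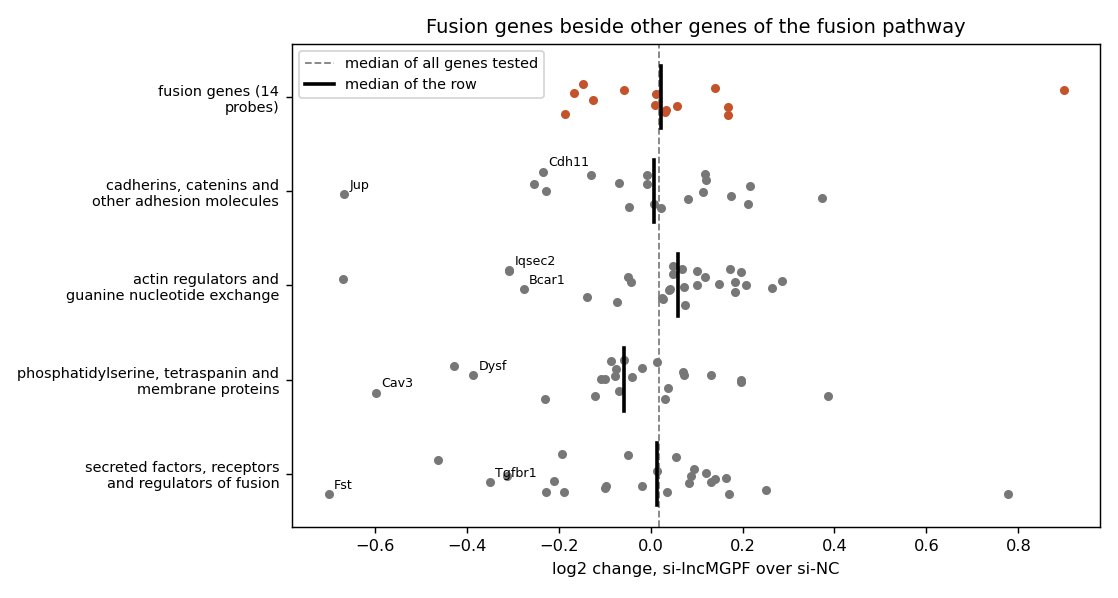
Log2 change, si-lncMGPF over si-NC (horizontal axis), of the 14 member probes and, below them, of the 95 tested genes of the wider list in 4 categories, with row medians (bars) and the median of all genes tested (dashed line); vertical scatter within a row carries no value. The row medians lie between -0.06 and 0.06, and the 8 labelled genes lie left of 0. Mef2c (0.78), Anxa5 (0.39) and Ntn1 (0.25), also named in the text, lie right of 0 and carry no label.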

How the data were processed

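Cy3-labelled total RNA of 6 C2C12 samples was read on 1-colour arrays, per the labels. The authors deposited linear intensity values, background-subtracted and detrended by Feature Extraction 11.0.1.1, per the file headers. Their series table repeats that intensity at all 44397 spots of each array, uncentred, with medians of 64.4, 36.7 and 33.7 on si-lncMGPF replicates 1 to 3 and 59.7, 46.5 and 50.9 on si-NC replicates 1 to 3.

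Here log2 values were scaled by each array's 75th percentile over 43020 non-control spots, without outlier spots (117 to 134 per array). Tested probes were measured on all 6 arrays and well above background throughout a group (24617, of which 21523 on all arrays), and 44 lacking a value were left out. Accessions were matched to RefSeq names (GRCm38.p6), and the array design uses mm9, so probe positions are not given. The wider list takes each gene's brightest probe.

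The test was limma 3.58.1 (R 4.3.3), with no covariate and Benjamini-Hochberg adjustment over all tested probes. It was also run on simulated data, whose arrays were drawn independently and without a slide effect, so that run does not cover slide. From the wider list, genes past the threshold were to be named, with the 2 of smallest p per category among those above background on all arrays whose groups do not overlap, and for Mymk and Mymx the 3 most similar genes. Members, lists and rules were chosen with earlier results of these data known. Alternatives covered scaling, background correction, filters, slide, replicate number, array weights and left-out arrays. The number of arrays limits the precision.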

Additional observations from a re-analysis of the deposited data

How the results depend on the processing

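In limma 0 member probes were called under each alternative except array weights, of 14 tested or, with the filter on all arrays, of 13 (Tmem182 dropped out). Array weights by the default method did not converge and were not run, and limma's gene-by-gene method was used in their place, chosen after seeing the data. Its weights ran from 0.125 to 9.39. It called 10146 of 24617 probes over the array, beside 34 of 95 genes of the wider list and 3 of 14 member probes. The 3 were Jam2 probe 1 (0.23), Jam3 (0.23) and Adam12 (-0.26), while Mymk had -0.068. The share of member probes called was below that of the array. Over all probes the count of 26 (7 higher, 19 lower) became 15 with quantile normalization (7 higher, 8 lower), 8 with normexp (4 higher, 4 lower), 10 with slide as a fixed block and 1 on the slide 1 arrays alone. It was 0 with no filter on dim probes (5266 at an unadjusted p below 0.05) and 0 with replicate number as a block (4416), where samples share a number only: deviations of same-numbered arrays correlated at 0.185, 0.318 and -0.0582. Leaving out 1 array at a time gave 0 to 4131 probes, the highest on omitting si-lncMGPF replicate 1, which leaves each group on its own slide, 4 without si-lncMGPF replicate 2, and 0 without each other array (1872 to 2686 at an unadjusted p below 0.05). For the wider list it gave 0 to 9 genes, the 9 also without si-lncMGPF replicate 1 (4 higher: Mef2c, Anxa5, Ntn1 and Actr3, and 5 lower: Fst, Cav3, Dysf, Flot1 and Jup). In the list 1 gene, Fst, was called with an intensity trend and robust prior, and 1, again Fst, with the mean of a gene's probes. Fst has 1 probe, so its log2 change stayed at -0.70 in both and only the adjusted p moved.

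Several changes near 0 changed sign, none of them past the threshold. With quantile normalization Mymx had -0.014 and Kirrel1 probe 3 -0.018. After normexp Mymx had -0.068, Kirrel1 probe 1 -0.041, Dock1 -0.062, Adam12 0.0089 and Tmem182 0.24. With slide as a fixed block, and equally on slide 1 alone, Jam2 probe 2 had -0.047, Kirrel1 probe 1 -0.27, Dock1 -0.13 and Tmem182 0.41. With slide as a random block they had -0.023, -0.17, -0.086 and 0.27. Leaving out 1 array at a time gave -0.051 to 0.085 for Mymx, -0.025 to 0.073 for Jam2 probe 2, -0.044 to 0.22 for Kirrel1 probe 1, -0.11 to 0.13 for Kirrel1 probe 3, -0.023 to 0.12 for Dock1 and -0.29 to 0.089 for Tmem182. The median of the wider list became -0.141 with slide as a fixed block or on slide 1 alone and -0.107 with slide as a random block, and that of the member probes 0.0752 with array weights. The cause was not tested. The change of Kirrel1 probe 2 stayed positive in all 18 alternatives, from 0.63 to 1.16 (limma adjusted p from 0.0638 to 0.646). Several of them, such as the filters, the intensity trend and the series table, leave the change at 0.90 by construction, so they do not test its sign. Slide as a fixed block and slide 1 alone give the same 1.16, so these are not separate checks.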
